A study of Mus musculus with 6 samples.

Results

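The Obox genes (oocyte-specific homeobox) are a cluster of mouse homeobox genes, and their 8 members among the 55549 gene rows of each table are described here: Obox1, Obox2, Obox3, Obox4-ps35, Obox5, Obox6, Obox7 and Obox8. Members were chosen by symbol, and all 8 had counts in at least 1 library. The other 47 rows whose symbol begins with Obox, all annotated as pseudogenes, were used as context. The study exposed mouse zygotes from 4 h after fertilization to 40 µM ethylparaben (EtP), a preservative of the paraben class, and most of the exposed embryos stopped at the early 2-cell stage, per the design text. The groups were early 2-cell embryos exposed to EtP (3 libraries) and control early 2-cell embryos (3 libraries). The labels do not give the strain, the number of embryos in a library, the control medium, the hour of collection, or whether libraries came from separate cultures. The p-values therefore measure the spread between libraries, which may be technical, and exposure cannot be told apart from any difference in embryo age. In such bulk libraries, fewer cells of a kind and less RNA per cell cannot be told apart.

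A homeobox encodes the homeodomain, a DNA-binding fold carried by many transcription factors. In mouse, Obox1, Obox2, Obox5 and Obox7 are known as genes whose mRNA is made in the growing oocyte and stored in the egg, whereas Obox3 and Obox4 are transcribed anew when the embryonic genome is switched on during the 2-cell stage. OBOX proteins bind a bicoid-type DNA motif and act redundantly in mouse genome activation, where they help RNA polymerase II reach its first target genes. No class was assigned to Obox6, which has been studied as an aid to reprogramming of mouse fibroblasts to pluripotency, or to Obox8. No egg library was part of the data, so egg-stored and zygotic are used here as background classes.

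The family lies on mouse chromosome 7 (mm10), with first start 14331436 (Obox8) and last start 15833241 (Obox6), a span of 1502 kb that holds 53 of the 55 Obox rows. On the plus strand lie Obox7 at 14659496 to 14665996, Obox2 at 15388721 to 15398545, Obox1 at 15388948 to 15556866 and Obox5 at 15750131 to 15759800. On the minus strand lie Obox8 at 14331436 to 14333557, Obox3 at 15479825 to 15639902, Obox4-ps35 at 15820167 to 15825815 and Obox6 at 15833241 to 15839678. The end of the homeobox is shown next for 7 members and 2 Obox4-named rows, because it shows how alike the copies are and therefore how reads could be shared between them. Each is 48 bases from GENCODE M21 transcripts, 5′ to 3′, with capitals at bases that differ from Obox1.
Obox2: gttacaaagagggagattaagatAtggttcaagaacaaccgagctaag
Obox1: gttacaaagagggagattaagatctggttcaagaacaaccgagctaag
Obox5: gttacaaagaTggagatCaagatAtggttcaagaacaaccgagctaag
Obox7: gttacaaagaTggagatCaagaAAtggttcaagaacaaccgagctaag
Obox3: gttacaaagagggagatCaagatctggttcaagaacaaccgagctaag
Obox6: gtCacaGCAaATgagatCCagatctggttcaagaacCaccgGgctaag
Obox8: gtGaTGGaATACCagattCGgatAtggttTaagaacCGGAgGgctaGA
Obox4-ps27: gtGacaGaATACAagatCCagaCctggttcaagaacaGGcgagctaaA
Obox4-ps22: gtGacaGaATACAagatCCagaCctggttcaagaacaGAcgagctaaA
Obox2 and Obox3 each differed from Obox1 at 1 base of this stretch, Obox5 at 3, Obox7 at 4, Obox6 at 10, the Obox4-named rows at 13 and Obox8 at 20. In every line the codon after the tryptophan and phenylalanine codons (tggttc or tggttt) is aag, lysine, the residue known as the hallmark of bicoid-class homeodomains. In Obox2 the stretch lies inside the annotated coding region but in another reading frame, while in the other 6 members shown it is in frame. The transcript of Obox4-ps35, annotated as a lincRNA, has no such stretch, and aligned to Obox4-ps27 with 75.7% identity over 563 bases.

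Near-identical copies limit what a count means. Of the 150-base words of Obox1 and Obox2, as long as 1 read, 34.1% and 38.2% also occur in the other gene and in no gene beyond these, and the transcripts are 99.2% identical over 1459 bases. None of the words of Obox5, Obox6, Obox7, Obox8 or Obox4-ps35 occurs in another gene, and 4.54% of those of Obox3 occur in Obox3-ps3. The annotated span of Obox1 also overlaps Obox2 on the same strand and Obox3 on the other strand, and the libraries do not mark strand. The division of reads between Obox1 and Obox2 is therefore uncertain. Their separate levels, fold changes, ranks and shares rest on the division as deposited, and their sum is given only as a ratio to Obox5.

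**Figure D1:**
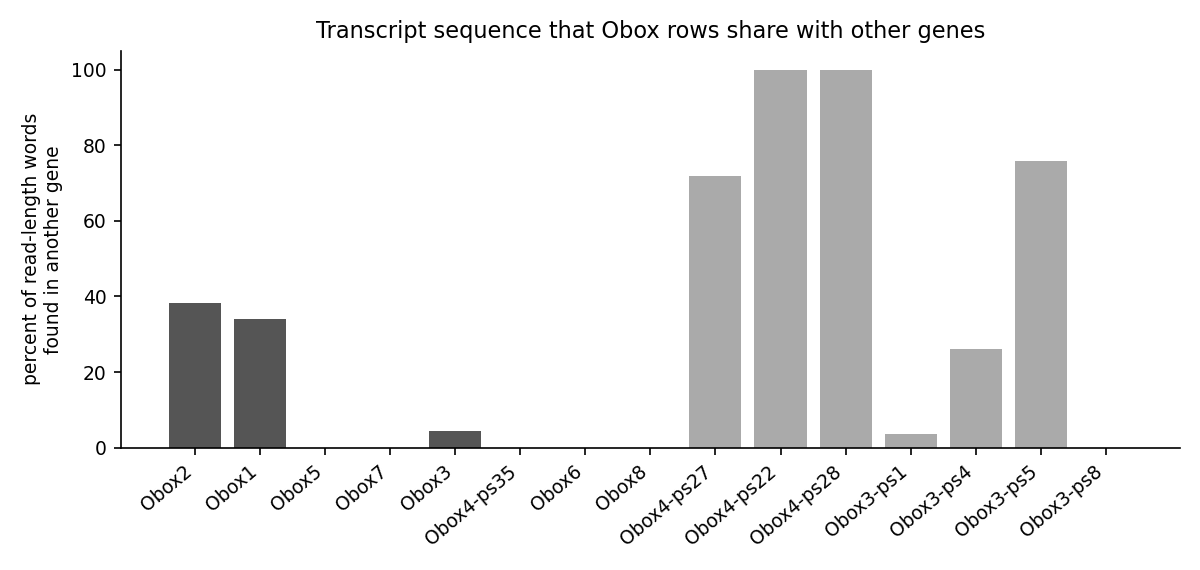
Percent of the 150-base words of each transcript set (y axis) that also occur in another gene, for the 8 members (dark bars) and 7 rows annotated as pseudogenes (light bars). Among the members, Obox1 and Obox2 share words with each other, at 34.1% and 38.2%, while Obox4-ps22 and Obox4-ps28 share every word.

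RNA was amplified by Smart-seq2, which primes on poly(A) tails, and library totals were 11906206 to 14512216 expected counts in EtP and 11173295 to 14737152 in control. In the deposited tables, expected counts are estimated fragment numbers that need not be whole, and TPM rescales them by transcript length and depth to a fixed total. Fold changes come from edgeR with TMM scaling, where factors were 0.738 to 0.833 in EtP and 1.198 to 1.385 in control. Scaling by library size alone moved the median log2 fold change of all 14373 tested genes by -0.73, so values under both scalings are given for the egg-stored genes and Obox3. Of 6 egg markers, 4 were called higher in EtP, beside 12.5% of all tested genes. With library size alone 3 were, beside 3.79%. The 6 summed to 14500–16200 CPM in EtP and 4330–5580 CPM in control, most of it Bmp15 (means of 10400 and 3000 CPM). All 6 markers of the 2-cell embryo were called lower under both scalings, beside 18.1% of all tested genes, or 53.0% with library size alone. They summed to 22.1–27.5 CPM in EtP and 267–341 CPM in control. Of these 6, Zfp352 (2, 2 and 3 counts in EtP) and Usp17lc (4.23, 1 and 4) passed the filter on low counts only through control. A call for either could only be lower. Markers of cumulus and granulosa cells, 12 genes, summed to 18.6–20.3 CPM in EtP and 19.3–46.1 CPM in control. Cyp19a1 made up most of this, with means of 17.1 CPM in EtP and 22.2 CPM in control. Of the 6 tested, 3 were called lower (Fshr, Ptgs2 and Vim) and 0 higher, or 4 and 0 with library size alone. Counts in EtP were 8, 2 and 7 for Fshr, 2, 0 and 0 for Ptgs2, and 0, 1 and 0 for Vim. These 3 passed the filter on low counts only through control, so a call for them could only be lower. Amh was at 0 in all 6 libraries and Foxl2 at 0 in all but 1 control library. Sperm markers, 7 genes, summed to 2.9–3.43 CPM in EtP and 5.84–12.9 CPM in control, and 6 markers of later embryos to 18.9–32.5 CPM in EtP and 14.6–17.2 CPM in control. Of the later markers, Nanog (means of 22.5 CPM in EtP and 10.3 CPM in control) was called higher and Krt18 lower. Nanog lost its call with library size alone (log2 fold change 0.40, adjusted p = 0.259, edgeR). Krt18, with 0, 1 and 0 counts in EtP, passed the filter only through control, so a call for it could only be lower. The part of these markers in the results was not tested.

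With TMM scaling, the egg-stored and the other tested Obox members were called in opposite directions. Of the 8 members, 7 passed the filter on low counts, and edgeR's quasi-likelihood test called 4 higher in EtP and 3 lower at a Benjamini-Hochberg adjusted threshold of 0.05. Over all tested genes, 12.5% were called higher and 18.1% lower. The 4 called higher were the egg-stored genes Obox1, Obox2, Obox5 and Obox7, and the 3 called lower were Obox3, Obox4-ps35 and Obox6. Obox4-ps35 and Obox6 passed the filter only through their control counts, so a call for them could only be lower. Obox3, with 8.93 counts in EtP 1, also needed control libraries to pass. With library size alone, 2 members (Obox1 and Obox2) were called higher, where 3.79% of all tested genes were, and the same 3 were called lower, where 53.0% were. The calls for Obox1 and Obox2 therefore held under both scalings, while those for Obox5 and Obox7 did not. In TMM-scaled CPM, all 4 egg-stored genes were higher in every EtP library than in any control library, as were 19.0% of all tested genes. Obox3, Obox4-ps35 and Obox6 were lower in every EtP library, as were 27.9% of all tested genes.

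**Figure D2:**
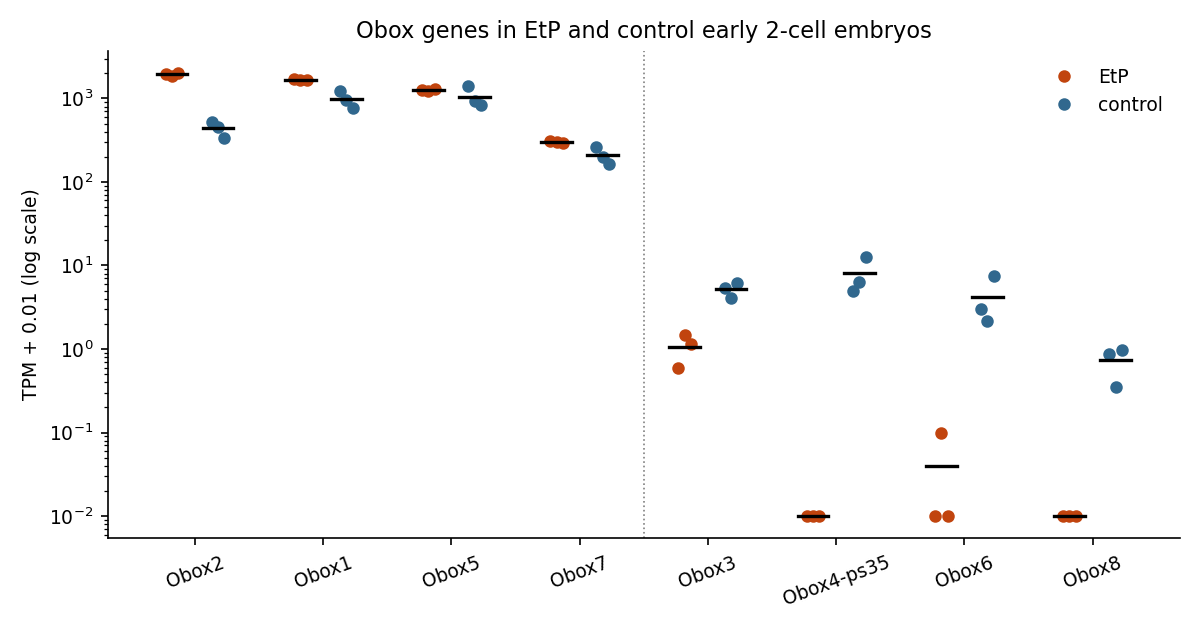
Deposited TPM plus 0.01 on a log axis for the 8 members, with 1 point per library (EtP left, control right of each pair) and a bar at the group mean. Left of the dotted line, Obox2, Obox1 and Obox7 lie higher in all 3 EtP libraries and Obox5 overlaps; right of it, every EtP library lies below every control library, and Obox4-ps35 and Obox8 are at 0 TPM in EtP.

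Among the egg-stored genes, Obox2 differed most between the groups, with the Obox1 and Obox2 reads divided as deposited. Obox2 had 1951, 1848 and 2021 TPM in the 3 EtP libraries, against 529, 460.2 and 336 TPM in the 3 control libraries. The lowest EtP library was far above the highest control library, and the EtP libraries lay close together. Obox2 was 6.61-fold higher in EtP (log2 fold change 2.72, SE 0.29, adjusted p = 0.000103, edgeR), and its log2 fold change was 2.02 with library size alone (adjusted p = 0.000113). Ranked by TPM within each library, Obox2 was 81st, 90th and 79th in EtP and 278th, 325th and 446th in control.

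Obox1, the nearest copy of Obox2, had 1695, 1673 and 1669.6 TPM in EtP and 1237, 954 and 773 TPM in control. The groups did not overlap, and the control libraries were spread more widely than the EtP libraries. In the edgeR fit Obox1 was 2.61-fold higher in EtP (log2 fold change 1.39, SE 0.29, adjusted p = 0.00532), and the log2 fold change was 0.68 with library size alone (adjusted p = 0.0358). Left-out libraries moved it between 1.18 and 1.85, without loss of the call.

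Obox7 was the least abundant of the 4 per transcript length, with 309, 298 and 293 TPM in EtP and 265, 202 and 166 TPM in control. All EtP libraries were above all control libraries, the nearest pair by a small margin. Its log2 fold change was 1.08 (SE 0.29, adjusted p = 0.0187, edgeR). The call was lost with library size alone (log2 fold change 0.37, adjusted p = 0.236) and when EtP 1, EtP 2 or control 2 was left out (1.04, 1.09 and 1.05, with adjusted p of 0.066, 0.0586 and 0.0751 from edgeR). It was also lost under 2 further settings, a stricter filter on low counts (log2 fold change 0.82) and limma on log2(TPM + 1) (0.53).

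Obox5 had 1264, 1224 and 1290.2 TPM in EtP and 1391, 919 and 830.5 TPM in control. On the TPM scale the groups overlapped, since control 1 was above all EtP libraries. After TMM scaling its level was 2190, 2090 and 1880 CPM in EtP and 1720, 917 and 720 CPM in control, which did not overlap. The log2 fold change was 0.88 (SE 0.30, adjusted p = 0.049, edgeR), close to the threshold. The call was lost with library size alone (log2 fold change 0.17, adjusted p = 0.58) and without any EtP library, control 2 or control 3, when edgeR's adjusted p was 0.0839 to 0.164 and the log2 fold change 0.68 to 0.97. It was also lost under 3 further settings, among them upper-quartile scaling (log2 fold change 0.80, adjusted p = 0.0749, edgeR).

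The order of the egg-stored genes by TPM differed between the groups. In EtP, Obox2 averaged 1940 ± 87 TPM, Obox1 1680 ± 13.8, Obox5 1260 ± 33.6 and Obox7 300 ± 8.56 (SD, n = 3), and no neighbours in that order overlapped. In control, Obox5 averaged 1050 ± 301 TPM, Obox1 988 ± 234, Obox2 442 ± 98.0 and Obox7 211 ± 50.5 (SD, n = 3). There Obox5 and Obox1 overlapped and changed places between libraries, while Obox2 lay below both and above Obox7. Together the 4 genes summed to 5220, 5040 and 5270 TPM in EtP, against 3420, 2530 and 2100 TPM in control.

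Shares within the family do not depend on how libraries are scaled. Of the summed counts of the 4 egg-stored genes, Obox2 made up 36.0%, 35.7% and 37.0% in EtP and 14.5%, 17.3% and 15.2% in control. Obox5 made up 31.4%, 31.4% and 31.8% in EtP and 49.9%, 45.3% and 48.7% in control. Obox1 differed less, with 27.1%, 27.5% and 26.1% in EtP and 28.5%, 30.0% and 28.9% in control, and Obox7 had 5.14–5.55% in EtP and 7.12–7.38% in control. None of the 4 shares overlapped between the groups, and how often shares within other gene sets separate was not computed. The 4 Obox shares are parts of the same total, so a larger Obox2 share leaves less for the others, and they are not 4 separate results.

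**Figure D3:**
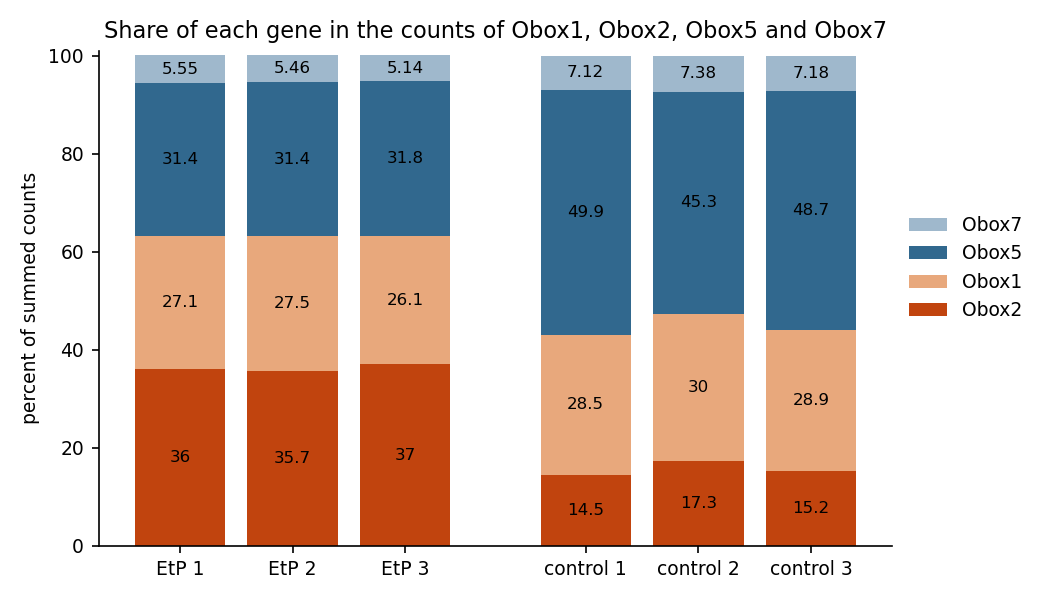
Stacked percent of the summed expected counts of Obox1, Obox2, Obox5 and Obox7 in each library (EtP 1–3 left, control 1–3 right), with each share printed in its bar. Obox2 takes 35.7–37.0% in EtP and 14.5–17.3% in control, and Obox5 takes 31.4–31.8% in EtP and 45.3–49.9% in control.

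The ratio of Obox2 to Obox5 counts was 1.15, 1.14 and 1.16 in EtP and 0.29, 0.381 and 0.312 in control. For the sum of Obox1 and Obox2, which does not depend on how reads were divided between these 2 copies, the ratio to Obox5 was 2.01, 2.01 and 1.99 in EtP and 0.86, 1.04 and 0.906 in control. Neither ratio overlapped between the groups, and each had a 2-sided exact permutation p of 0.1, the smallest that 3 against 3 libraries can give. The ratio of Obox7 to Obox5 overlapped, at 0.162–0.177 in EtP and 0.143–0.163 in control (exact permutation p = 0.2). With the Obox1 and Obox2 reads divided as deposited, Obox2 stood at 1.30–1.42 counts per Obox1 count in EtP and 0.509–0.575 in control. On the same division, the ratio of Obox1 to Obox5 was 0.822–0.877 in EtP and 0.57–0.662 in control, although the Obox1 share was lower in EtP. These are 5 ratios computed in 1 family, with no p adjusted over them and no ratios of other genes computed beside them.

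Promoter sequence was compared because the egg-stored genes were called in 1 direction and Obox3 in the other. RefSeq (GRCm38.p6) windows of 300 bases, 250 before and 50 after the start, matched 5 members, Obox1, Obox2, Obox3, Obox5 and Obox7. The lines give Obox1 (chr7:15547007-15547306, plus strand), Obox5 (chr7:15750120-15750419, plus strand) and Obox3 (chr7:15639728-15640027, minus strand), each 5′ to 3′, with capitals at the bicoid-type motif.
Obox1: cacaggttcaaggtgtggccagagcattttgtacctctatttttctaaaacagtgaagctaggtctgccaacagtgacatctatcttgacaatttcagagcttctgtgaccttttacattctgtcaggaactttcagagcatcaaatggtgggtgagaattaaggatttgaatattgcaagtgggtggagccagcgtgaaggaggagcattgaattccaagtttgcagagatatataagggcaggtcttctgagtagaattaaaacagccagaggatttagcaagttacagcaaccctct
Obox5: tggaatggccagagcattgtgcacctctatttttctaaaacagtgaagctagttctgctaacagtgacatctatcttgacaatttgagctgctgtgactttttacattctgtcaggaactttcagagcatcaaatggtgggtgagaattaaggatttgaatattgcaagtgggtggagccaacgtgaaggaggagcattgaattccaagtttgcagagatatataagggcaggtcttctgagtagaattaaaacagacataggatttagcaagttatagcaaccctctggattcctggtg
Obox3: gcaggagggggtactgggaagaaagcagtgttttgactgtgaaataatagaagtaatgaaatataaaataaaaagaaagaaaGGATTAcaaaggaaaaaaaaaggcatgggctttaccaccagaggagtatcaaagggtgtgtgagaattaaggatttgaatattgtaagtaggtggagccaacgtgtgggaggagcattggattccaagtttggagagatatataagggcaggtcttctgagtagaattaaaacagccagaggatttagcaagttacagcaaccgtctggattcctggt
The windows of Obox1 and Obox2 were identical over the 203 bases that aligned, those of Obox5 and Obox7 were 97.4% identical, and those of Obox1 and Obox5 95.5%. The Obox3 window was 76.0–86.9% identical to the other 4 where it aligned. The motif GGATTA, or TAATCC on the other strand, occurred once in the Obox3 window, 168 bases before the start, and in none of the other 4. Of all 32851 RefSeq promoter windows of this length, 7.06% held it, and a match describes letters only.

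Of the 2 members placed in the zygotic class, Obox4-ps35 by its name alone, Obox3 had counts left in EtP. Obox3 had 8.93, 14.13 and 18.85 expected counts (0.58, 1.46 and 1.14 TPM) in EtP, against 101.93, 70.89 and 72.23 expected counts (5.37, 4.04 and 6.09 TPM) in control. Every EtP library was below every control library. Obox3 was 3.62-fold lower in EtP, with a log2 fold change of -1.86 (SE 0.37, adjusted p = 0.00416, edgeR) and -2.57 with library size alone.

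Obox4-ps35, the row named for Obox4 among the members, had no count in any EtP library, against 34, 40 and 55 counts (4.98, 6.38 and 12.68 TPM) in control. With 3 counts allowed over the EtP group, it was at least 26.6-fold lower in EtP. The edgeR call was lower (adjusted p = 0.000477), and its fitted fold change depends on the prior count, since EtP held no reads.

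Obox6 had 0, 1 and 0 counts in EtP and 45, 30 and 72.0 counts in control (3.0, 2.18 and 7.45 TPM). Its ratio was 90.8-fold lower in EtP, with a 95% exact binomial interval of 16.0 to 3610 that covers counting error only. Obox6 was called lower by edgeR (adjusted p = 0.000592). Obox8 had no count in EtP and 11, 4 and 8 counts in control (0.86, 0.34 and 0.97 TPM), too few to pass the filter. It was at least 4.74-fold lower in EtP, with 3 counts allowed over the group, and a fit with the filter relaxed to 1 count gave an edgeR adjusted p of 0.00808. All counts of Obox8 were in control, so that fit could only find it lower.

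Per transcript length, these 4 genes were far below the egg-stored genes in both groups. In control Obox4-ps35 averaged 8.01 ± 4.1 TPM, Obox3 5.17 ± 1.04, Obox6 4.21 ± 2.84 and Obox8 0.723 ± 0.337 (SD, n = 3). The first 3 overlapped, and Obox8 was below them in every control library. In EtP, Obox3 averaged 1.06 ± 0.445 TPM (SD, n = 3), Obox6 was at 0, 0.09 and 0 TPM, and the other 2 were at 0. The 4 summed to 8.9, 15.1 and 18.8 counts in EtP and 191.9, 144.9 and 207.2 counts in control.

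**Figure D4:**
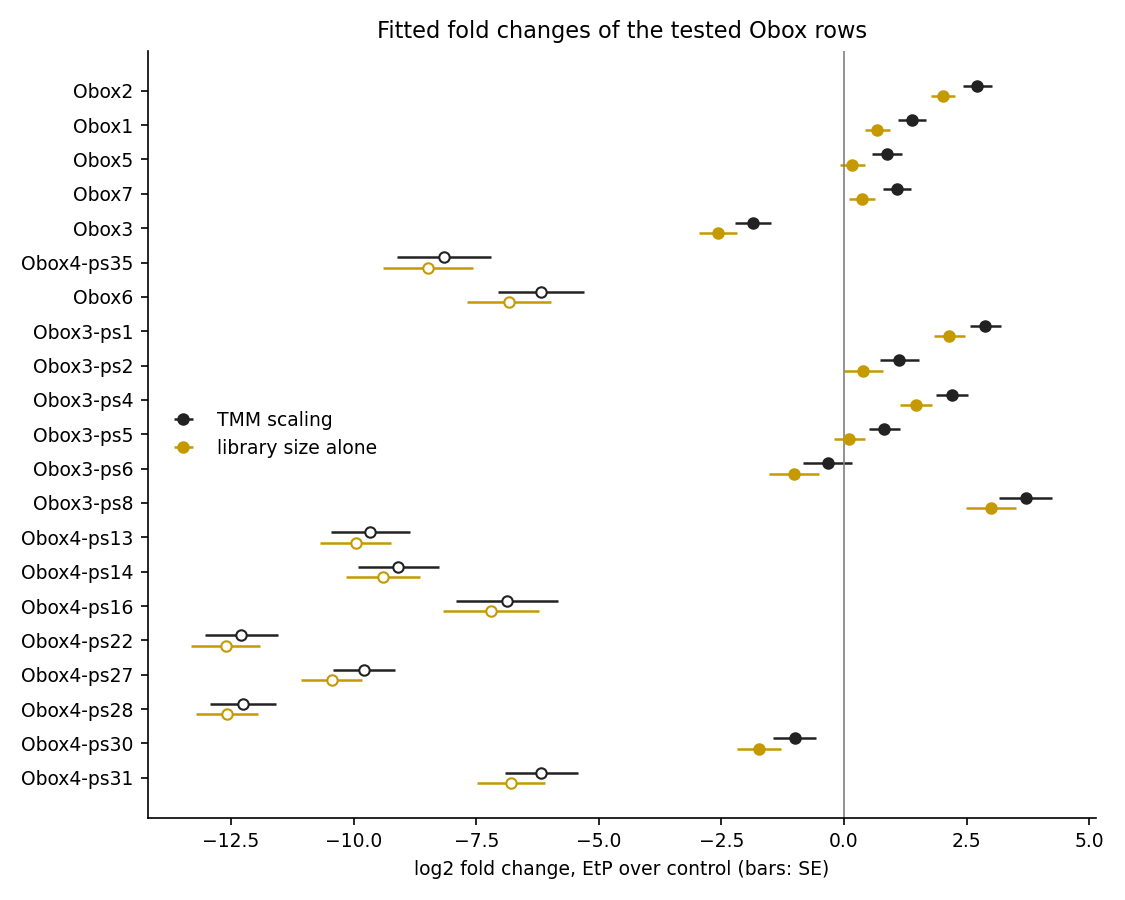
Fitted log2 fold change, EtP over control, with SE (x axis) for the 21 tested Obox rows, under TMM scaling (black) and library size alone (yellow). Open symbols mark rows with at most 3 counts over the EtP libraries, whose fitted size depends on the prior count; Obox2 is at 2.72 and 2.02, and Obox5 at 0.88 and 0.17.

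The rows with another Obox symbol went in both directions. Of these 47 rows, 14 passed the filter, and edgeR called 3 higher in EtP, all named Obox3-ps, and 7 lower, all named Obox4-ps. Over all tested genes, 12.5% were called higher and 18.1% lower. The 7 lower rows had under 2 counts each over the EtP libraries. They passed the filter only through control, so a call for them could only be lower. The other 38 rows named Obox4-ps summed to 15, 9 and 10 counts in EtP (1.97, 1.1 and 2.18 TPM), against 3832, 2408 and 2783 counts in control (279, 194 and 314 TPM). Their sum in control was thus far above Obox4-ps35 itself, and 19 of the 38 had counts in control and none in EtP. In general, fewer genes were counted in EtP. At least 1 count was held by 19244 to 19613 genes per EtP library and 25861 to 26004 per control library. The share of all genes with counts in control and none in EtP was not computed, so the 19 of 38 have no background beside them. Some of the 19 rows had few control counts, such as Obox4-ps2 with 4 and Obox4-ps19 with 0.05 expected counts over the control libraries. Reads shared between these copies do not change their sum.

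Obox4-ps27, Obox4-ps22 and Obox4-ps28 had the highest mean counts of the Obox4-named rows, and 71.8%, 100% and 100% of their 150-base words occur in another gene. Obox4-ps27 had 0, 1.5 and 0 expected counts in EtP and 1470, 796 and 981 in control, a ratio of 1000-fold lower with an interval of 277 to 8280. Obox4-ps22 had 0.5, 0 and 0 in EtP and 979, 527 and 764 in control, and Obox4-ps28 had none in EtP and 922, 593 and 724 in control. With 3 counts allowed over the EtP group, Obox4-ps22 was at least 467-fold and Obox4-ps28 at least 461-fold lower in EtP. No EtP library of these 3 rows came near any control library. In TMM-scaled CPM, 27.9% of all tested genes were lower in every EtP library. Of the 38 rows, 24 had the end of the homeobox and 17 had it in an open frame of over 300 codons, although GENCODE M21 annotates no coding region in them.

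**Figure D5:**
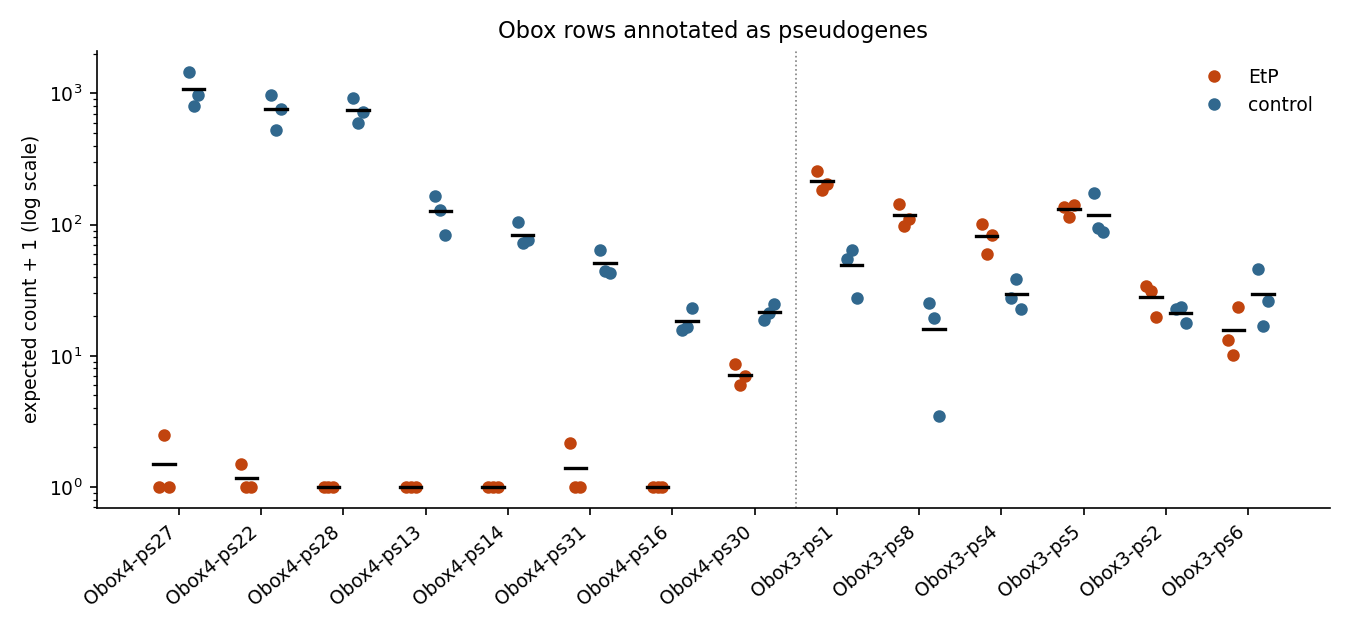
Expected count plus 1 on a log axis for the 14 tested rows annotated as pseudogenes, 1 point per library (EtP left, control right of each pair) with a bar at the group mean. Left of the dotted line, 7 of 8 Obox4-named rows have under 2 counts over all EtP libraries; right of it, Obox3-ps1, Obox3-ps8 and Obox3-ps4 lie higher in every EtP library.

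Taken as a sum, the 8 Obox3-ps rows did not follow Obox3. They summed to 678.4, 493.4 and 575.3 counts in EtP, against 375.9, 259.5 and 190.3 in control. Obox3-ps1 had 254, 183.5 and 202 counts in EtP and 53.7, 63.4 and 26.5 in control, with a log2 fold change of 2.88 (SE 0.32, adjusted p = 0.000125, edgeR). The other 2 called higher, named here after their values were seen, were Obox3-ps4 (log2 fold change 2.20, SE 0.32) and Obox3-ps8 (3.71, SE 0.54), and Obox3-ps8 lies on chromosome 17. Obox3-ps3, which shares words with Obox3 and did not pass the filter, had 2.42 counts over the EtP libraries and 42.4 over the control libraries. In the 3 rows called higher, every EtP library was above every control library, as in 19.0% of all tested genes in TMM-scaled CPM. Of the words of Obox3-ps1, 3.55% occur in another gene, and of Obox3-ps8 none.

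As shares of all Obox counts, Obox3, Obox6, Obox8 and the rows named Obox4-ps made up 0.0328%, 0.0396% and 0.04% in EtP, against 6.52%, 6.22% and 11.5% in control. All Obox rows together took 0.519%, 0.512% and 0.497% of library counts in EtP and 0.442%, 0.279% and 0.232% in control. Most Obox RNA in both groups thus came from the egg-stored genes.

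Other gene lists were set beside the family by their edgeR calls, to be read against the shares over all tested genes. These shares were 12.5% higher and 18.1% lower with TMM scaling, while library size alone gave 3.79% higher and 53.0% lower. Of 8 other homeobox genes of the preimplantation embryo, 2 were called higher and 3 lower, or 1 and 3 with library size alone. Among them Duxf3 (Dux), a homeobox activator of 2-cell genes, averaged 1.43 ± 0.622 CPM in EtP and 19.7 ± 8.68 CPM in control (SD, n = 3; log2 fold change -3.79, adjusted p = 0.000137, edgeR). Cphx2 went the other way, at 94.2 ± 29.1 CPM in EtP and 2.99 ± 2.66 CPM in control (SD, n = 3; log2 fold change 4.97, adjusted p = 0.000542, edgeR). Cphx1 had a log2 fold change of 0.68 (adjusted p = 0.0431, edgeR), which was -0.04 with library size alone, and Duxbl3 one of -1.84 (adjusted p = 0.0461). The third called lower, named after its values were seen, was Crxos (log2 fold change -4.24, adjusted p = 0.002, edgeR). With 0, 2 and 2 counts in EtP, Crxos passed the filter only through control, so a call for it could only be lower. The list's median log2 fold change was -0.35, beside -0.19 over all tested genes.

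Of 14 tested transcription factors of the oocyte, 2 were called higher and 1 lower, or 2 and 4 with library size alone, beside 12.5% and 18.1%, or 3.79% and 53.0%, of all tested genes. The list's median log2 fold change was 0.16. Nobox, which drives oocyte genes, had a log2 fold change of 1.83 (adjusted p = 0.000148, edgeR), Zfp57, a maternal factor of imprint maintenance, one of 2.05 (adjusted p = 9.49e-05) and Sohlh2 one of -1.08 (adjusted p = 0.0372).

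Of 20 tested genome activation factors, 2 were called higher and 2 lower, with a median log2 fold change of -0.02, and 1 was called higher and 10 lower with library size alone. The lower share with library size alone was thus near the 53.0% of all tested genes, and the lower share with TMM scaling was below the 18.1% of all tested genes. Nfya, a CCAAT-box factor, was at 1.62 on the log2 scale (adjusted p = 0.00127, edgeR) and Nfyb at 1.26 (adjusted p = 0.0135, or 0.137 with library size alone). The 2 called lower were Dppa4 at -0.96 (adjusted p = 0.0347, edgeR) and Gabpa, an ETS-family factor named after its values were seen. Gabpa averaged 0.216 ± 0.245 CPM in EtP and 6.49 ± 0.527 CPM in control (SD, n = 3), the largest change called in this list. Its log2 fold change was -4.82 (adjusted p = 0.000193, edgeR) and -5.54 with library size alone. With 5, 0 and 2 counts in EtP, Gabpa passed the filter only through control, so a call for it could only be lower. The fitted size rests on these few counts.

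Of 13 subunits of RNA polymerase II, with which OBOX proteins are known to work, 3 were called higher and 2 lower, and the median log2 fold change was -0.47. With library size alone 2 were called higher and 8 lower, where 3.79% and 53.0% of all tested genes were. On the log2 scale Polr2b was at 1.59, Polr2d at 1.54, Polr2c at 0.64 and Polr2e at -1.10, and Polr2c was at -0.09 with library size alone. The other one called lower was Polr2m at -1.17, named after its values were seen. Of 8 listed bicoid-class genes outside the family, 2 were tested and neither was called, with Otx1 at -0.63 (adjusted p = 0.129, edgeR). Both were called lower with library size alone, where 53.0% of all tested genes were (Otx1 at -1.37, adjusted p = 0.00447, edgeR).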

How the data were processed

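Polyadenylated RNA of early 2-cell mouse embryos (3 EtP and 3 control libraries) was sequenced as paired reads after Smart-seq2, per the labels' protocols. The submitters' processing notes name cutadapt 1.16, STAR and the mm10 build, while the program behind the counts is not given in the sources used here. Expected counts, as deposited, are the authors' estimates, need not be whole, and were rounded for testing. The deposited TPM is scaled by the authors for transcript length and depth and was used as a description and in 1 alternative.

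EtP was compared with control with edgeR's quasi-likelihood test (version 4.0.16, in R 4.3.3) on all genes that passed filterByExpr. TMM scaling, robust fits and a design with group alone were used, and p-values were adjusted by Benjamini-Hochberg with a threshold of 0.05. CPM uses TMM-scaled library sizes. Bounds and intervals use the same sizes, allow 3 counts over the EtP group where it had none, and cover counting error only, since PCR copies were not marked. All 55 Obox rows matched GENCODE M21, and promoters came from RefSeq. The alternatives tried were scaling by library size, RLE or upper quartile, other filters, DESeq2 1.42.0, limma 3.58.1, a replicate block and each library left out.

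The members and lists were chosen with earlier results of these data known. All members were named, with the 4 other Obox rows of highest mean count and, per list, up to 4 genes with a mean of at least 5 CPM and the smallest p.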

Additional observations from a re-analysis of the deposited data

How the results depend on the processing

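Obox1 and Obox2 kept their direction and call under all 16 alternatives, with log2 fold changes of 0.68 to 1.85 and 2.02 to 3.13. Obox3, Obox4-ps35 and Obox6 did so under all 15 that tested them. The number of members called higher was 2, against 4, with library size alone, with a filter of at least 10 CPM in 3 libraries and with limma on log2(TPM + 1), and 2 to 4 with a library left out. The stricter filter left no lowly counted member to test, so 0 were called lower. For Obox5 the log2 fold change was 0.80 with upper-quartile scaling (adjusted p = 0.0749, edgeR), 0.17 with library size alone, 0.62 under the stricter filter, 0.30 with limma on TPM, and 0.68 to 1.42 with a library left out. For Obox7 it was 0.37 with library size alone, 0.82 under the stricter filter, 0.53 with limma on TPM and 0.87 to 1.55 with a library left out. Over all genes, 545 were called higher and 7617 lower with library size alone, 978 and 1454 under the stricter filter, 698 and 6195 with limma on TPM, and 1096 to 2637 and 1659 to 2887 with a library left out, against 1798 and 2601. Lower calls were 59.1% of calls, and 93.3% with library size alone or 89.9% with limma on TPM. The cause of these changes was not tested.

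The replicate numbers were not taken as pairs in the main fit. Same-numbered libraries deviated together with correlations of 0.18, 0.01 and 0.36, against -0.31 to 0.15 for libraries of different number. These values do not settle whether the numbers mark pairs, so a fit with a replicate block is also given. With the replicate block, 2295 genes were called higher and 3022 lower, the 4 and 3 members kept their calls, and Obox1, Obox2, Obox5 and Obox7 had log2 fold changes of 1.47, 2.80, 0.98 and 1.16, Obox3 -1.85, Obox6 -6.19 and Obox4-ps35 -8.19. With 23 counts over the control group, depth limits what the count of 0 for Obox8 in EtP can show.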

Other observations

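Among 5935 genes with a mean of at least 10 CPM, those whose TMM-scaled level followed Obox1 most closely over the 6 libraries were Fbxw27 (Pearson r = 0.9998), Oas1h (0.9993) and Ift20 (0.9984). For Obox4-ps35 they were Slc31a1 (0.9973), Tor1a (0.9955) and Rnf5 (0.9951). The groups stand apart, so these values describe a shared difference between EtP and control, and 66 genes had r over 0.99 with Obox1 and 11 with Obox4-ps35.

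Between the first and last Obox starts on chromosome 7 lay 31 rows with other symbols. None passed the filter on low counts, and 18 had under 1 count in all libraries together, and no neighbour of the Obox genes was compared between EtP and control.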
